A study of Mus musculus with 4 samples.

Results

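Radial glia and astroglial genes were followed in single cells of the embryonic mouse brain. The set holds 10 genes, Fabp7, Dbi, Apoe, Slc1a3, Vim, Sparc, Ptn, Ptprz1, Mt1 and Mt3, of the 27998 genes of the Illumina matrix. They were chosen by symbol, as genes known from radial glia and astrocytes, and in the Nanopore matrix all isoforms named for them were taken, which gave 39 of 31986 isoforms. The cells came from 1 untreated C57BL/6 mouse at embryonic day E18, from cortex, hippocampus and subventricular zone together, and no genotype, drug or time point was compared. Droplets of 1 emulsion on the 10x Chromium system were divided into an aliquot named for 190 cells and one named for 951 cells, and the cDNA of each was read as short fragments on Illumina and as long molecules on Nanopore. After cells with fewer than 1400 genes were left out, 1121 of 1141 cell barcodes remained, 186 in the smaller and 935 in the larger aliquot. The aliquots are therefore technical replicates of 1 suspension, and each p-value below measures the spread between them, not between animals.

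Radial glia are the neural stem cells of the developing cortex. Their long processes guide migrating neurons, they divide to give intermediate progenitors and neurons, and late in gestation they begin to turn into astrocytes. The genes fall into groups by what their proteins do. Fabp7 encodes a brain fatty acid binding protein, Dbi an acyl-CoA binding protein whose fragments also act on GABA receptors, and Apoe the main lipid carrier of the brain. Slc1a3 encodes the glutamate transporter GLAST, and Vim the intermediate filament protein vimentin. Sparc encodes a secreted protein that binds the matrix. Ptn encodes pleiotrophin, a secreted growth factor, and Ptprz1 its receptor, a tyrosine phosphatase. Mt1 and Mt3 encode metallothioneins, small proteins that bind zinc and copper.

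The long reads gave each molecule an isoform, and for Slc1a3, Ptn and Dbi the isoforms part at sites that can be read in the sequence. Slc1a3 lies on the minus strand at chr15:8634124-8710764 of GRCm38. Slc1a3-201 is its full coding transcript with 10 exons. Slc1a3-206 is annotated as a retained intron without a coding frame and runs past the end of exon 2 into the intron (chr15:8708532-8708591). Slc1a3-205, of the same annotated type, runs past the end of exon 3 (chr15:8688258-8688317). Each line below holds the last 30 bases of the shared exon in lower case and the 30 bases that follow in that transcript in capitals, which are intron in Slc1a3-206 and Slc1a3-205 and the next exon in Slc1a3-201.
Slc1a3-206: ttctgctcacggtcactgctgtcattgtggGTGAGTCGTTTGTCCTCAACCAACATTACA
Slc1a3-201 at the end of exon 2: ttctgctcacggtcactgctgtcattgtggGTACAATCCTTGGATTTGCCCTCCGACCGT
Slc1a3-205: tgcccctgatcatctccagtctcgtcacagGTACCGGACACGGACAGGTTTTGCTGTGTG
Slc1a3-201 at the end of exon 3: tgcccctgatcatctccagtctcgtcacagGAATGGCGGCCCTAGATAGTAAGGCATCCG

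Ptn, on the minus strand at chr6:36714929-36810220, has a pair of coding isoforms. Ptn-201 splices exon 4 to exon 5, while Ptn-202 reads on into the intron (chr6:36741261-36741307), so its coding frame ends on 17 bases of its own where Ptn-201 has 53. The lines give the shared end of exon 4 in lower case and the rest of the coding sequence of each isoform in capitals.
Ptn-201: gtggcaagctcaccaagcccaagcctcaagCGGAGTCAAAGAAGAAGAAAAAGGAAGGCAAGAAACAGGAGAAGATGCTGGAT
Ptn-202: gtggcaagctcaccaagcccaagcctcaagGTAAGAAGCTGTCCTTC

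Dbi, on the minus strand at chr1:120113280-120121078, starts its coding sequence in different first exons. Capitals mark the bases that Dbi-201 and Dbi-207 do not share, up to the 30 bases of the next exon that both hold. For Dbi-207 the last 60 bases of its own stretch are shown.
Dbi-201: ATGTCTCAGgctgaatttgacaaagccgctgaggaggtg
Dbi-207: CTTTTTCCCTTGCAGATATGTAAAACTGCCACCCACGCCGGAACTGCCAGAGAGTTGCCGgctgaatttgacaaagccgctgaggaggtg

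On Illumina the kept cells of the 190 and the 951 cell aliquot gave 1809081 and 8295650 UMIs (unique molecular identifiers, each counting 1 captured molecule). On Nanopore 993220 and 4889148 UMIs were assigned to an isoform. Median Illumina depth per cell was 8048.5 and 7551 UMIs. Cells were clustered on Illumina counts without the 10 genes and without the related genes counted further on, and classes were named by markers that include none of the 10. The radial glia-like class had 105 cells, 20 and 85 in the aliquots, and all 11 of its markers, among them Pax6, Sox2, Hes5 and Nes, were raised in it. The other classes used were cycling progenitor-like, immature and mature glutamatergic-like, and immature and mature GABAergic-like, with 119 to 283 cells each. A Cajal-Retzius-like class with 4 and 13 cells was too small for the fits. The aliquots shared 13 cell barcodes, and the 24 kept cells that carry one gave no different count of called genes when left out. Since the classes come from other genes of the same cells, a class difference describes how the 10 genes go with those genes and is no independent test of cell identity.

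All 10 genes were highest in the radial glia-like class on both platforms, and in none of them did the aliquots of that class overlap with those of any other class. Nanopore UMIs were assigned through the Illumina UMIs of the same cells, so the platforms are no independent tests of this order. For 8 of the 10 the next highest class on Illumina was the cycling progenitor-like one. For Ptn it was the immature glutamatergic-like class and for Ptprz1 the mature glutamatergic-like class. Levels are given as CPM, the UMIs of a gene per 1000000 UMIs of the class, in the 190 and then the 951 cell aliquot.

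**Figure D1:**
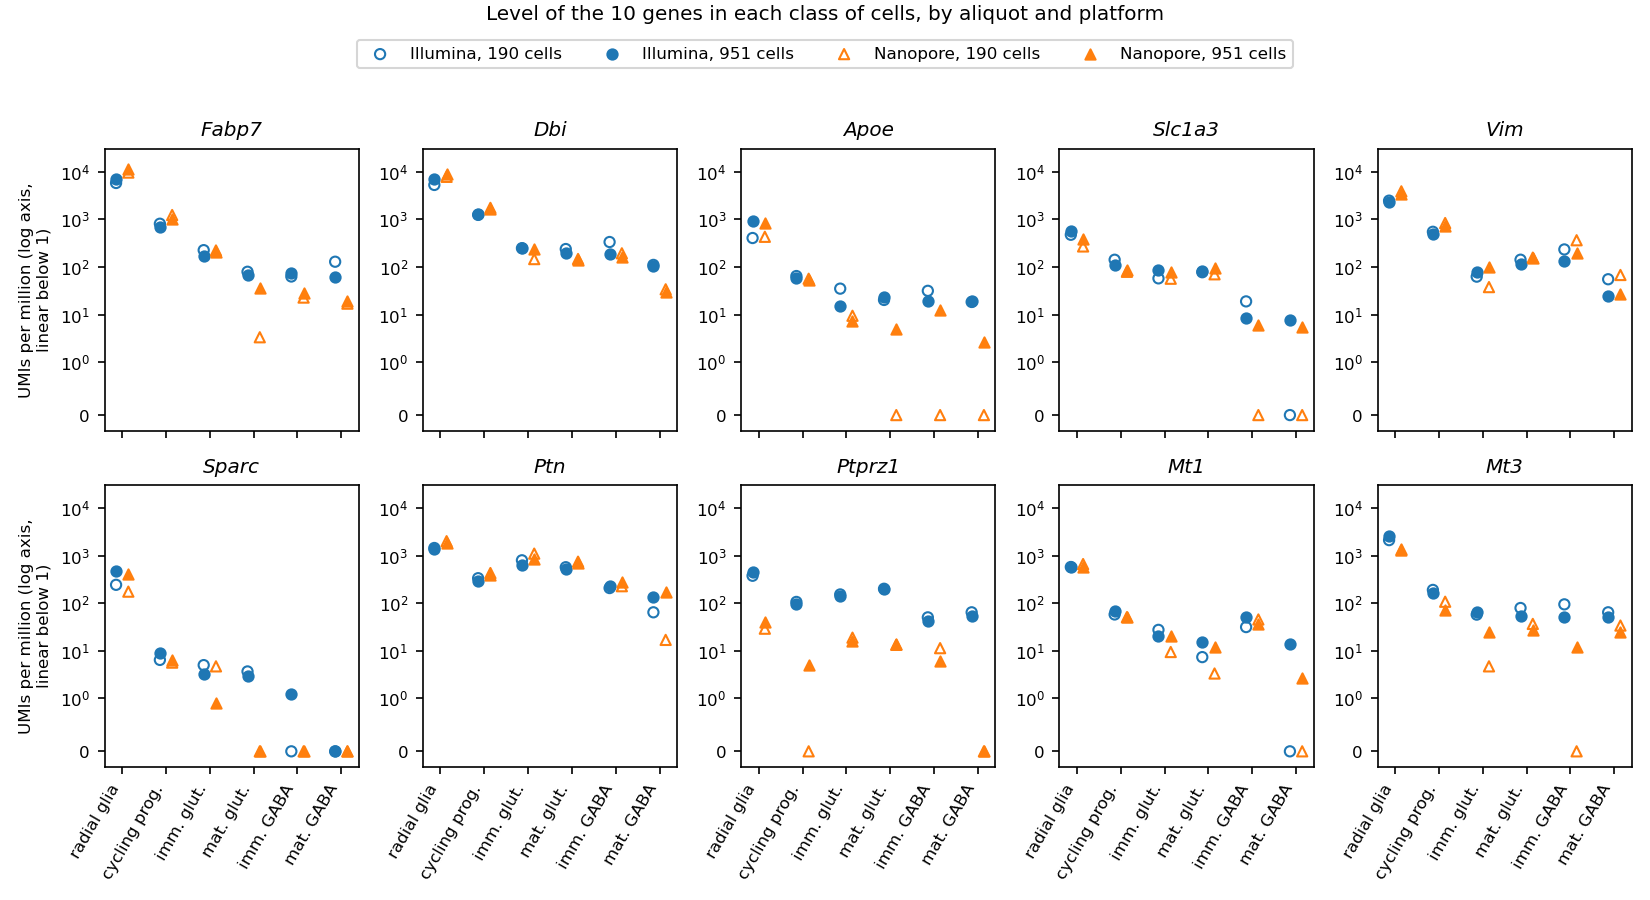
Level of each gene in CPM (log axis, linear below 1) in the 6 classes, with open symbols for the 190 cell and filled symbols for the 951 cell aliquot, circles for Illumina and triangles for Nanopore. The radial glia-like values, such as 5802 and 7153 CPM for Fabp7 on Illumina, lie above all others in every panel, and Ptn and Ptprz1 have the flattest profiles.

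Among the lipid binding genes, Fabp7 stood at 5802 and 7153 CPM in radial glia-like cells, against 808 and 681 CPM in cycling progenitor-like cells. It was at 225 and 170 CPM in immature glutamatergic-like cells and at 129 CPM or less in the other 3 classes of the fit. Fabp7 levels did not separate the remaining neurons, since the aliquots of mature GABAergic-like, mature glutamatergic-like and immature GABAergic-like cells overlapped in order. Dbi stood at 5275 and 7030 CPM in radial glia-like cells, at 1240 and 1282 CPM in cycling progenitor-like cells and at 110 and 104 CPM in mature GABAergic-like cells, its lowest class. Apoe was at 405 and 915 CPM in the radial glia-like class, at 64.4 and 58.3 CPM in the cycling progenitor-like class, and between 14.9 and 35.0 CPM in the neuronal classes. Its aliquots were the furthest apart of the 10 genes in the radial glia-like class, and 3 cells described further on hold part of that difference.

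Slc1a3 was at 474 and 561 CPM in radial glia-like cells and at 142 and 112 CPM in cycling progenitor-like cells. In glutamatergic-like neurons it was at 77.4 and 80.9 CPM in the mature and 57.6 and 84.7 CPM in the immature class, which overlapped with each other. In mature GABAergic-like cells it was at 0 and 7.85 CPM. Vim stood at 2468 and 2285 CPM in radial glia-like, 547 and 499 CPM in cycling progenitor-like and 55.2 and 25.1 CPM in mature GABAergic-like cells. Immature GABAergic-like cells held more Vim, 233 and 136 CPM, than immature glutamatergic-like cells, 62.6 and 77.2 CPM, and these groups did not overlap.

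Sparc had the sharpest boundary. It was at 243 and 475 CPM in radial glia-like cells and at 6.44 and 8.90 CPM in cycling progenitor-like cells. None of the 4 neuronal classes of the fit exceeded 5.01 CPM, and no Sparc UMI was counted in either aliquot of the mature GABAergic-like class.

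The ligand and receptor pair was shared most with neurons. Ptn stood at 1442 and 1396 CPM in radial glia-like cells, 796 and 638 CPM in immature and 570 and 522 CPM in mature glutamatergic-like cells, and only then came cycling progenitor-like cells with 335 and 297 CPM. Ptprz1 was at 377 and 460 CPM in radial glia-like cells, at 201 CPM in both aliquots of mature and at 153 and 143 CPM in immature glutamatergic-like cells. Neighbouring classes did not overlap between aliquots in the order of either gene.

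Both metallothionein genes, like most of the set, were next highest in cycling progenitor-like cells. Mt1 was at 575 and 569 CPM in radial glia-like cells, 58.0 and 67.2 CPM in cycling progenitor-like cells, and 0 and 14.1 CPM in mature GABAergic-like cells. Mt3 was at 2111 and 2560 CPM in radial glia-like cells and 190 and 166 CPM in cycling progenitor-like cells. In the neuronal classes Mt3 ranged from 50.2 to 94.5 CPM, and the order of those classes overlapped throughout. In the Cajal-Retzius-like cells, which were not tested, Dbi stood at 402 and 582 CPM and Vim at 213 and 191 CPM, Fabp7 at 166 and 55.8 CPM, Sparc at 0 and 7.98 CPM (1 UMI) and the others at 94.6 CPM or less, with no Mt1 UMI in either aliquot.

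The counts summed per aliquot and class were then fitted with edgeR's quasi-likelihood test over 8389 genes, with Benjamini-Hochberg adjustment. All 10 genes were called higher in the radial glia-like class in each of the 5 comparisons. Of all genes tested, 17.8% were called higher against mature glutamatergic-like cells, 16.3% against immature glutamatergic-like, 17.5% against mature GABAergic-like, 15.1% against immature GABAergic-like and 5.76% against cycling progenitor-like cells. The median log2 fold change of the 10 genes was 4.90, 4.95, 5.84, 4.82 and 2.73 in the same order, beside 0.05, 0.05, 0.07, 0.05 and 0.02 over all genes. These 10 were picked as radial glia genes, so their direction was known beforehand, and what the fits add is the size of each difference. Sparc passed the filter on low counts only through its radial glia-like sums, since no other class of the fit exceeded 8.90 CPM. Its calls were thus set by the filter, and only the size of its differences is read.

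**Figure D2:**
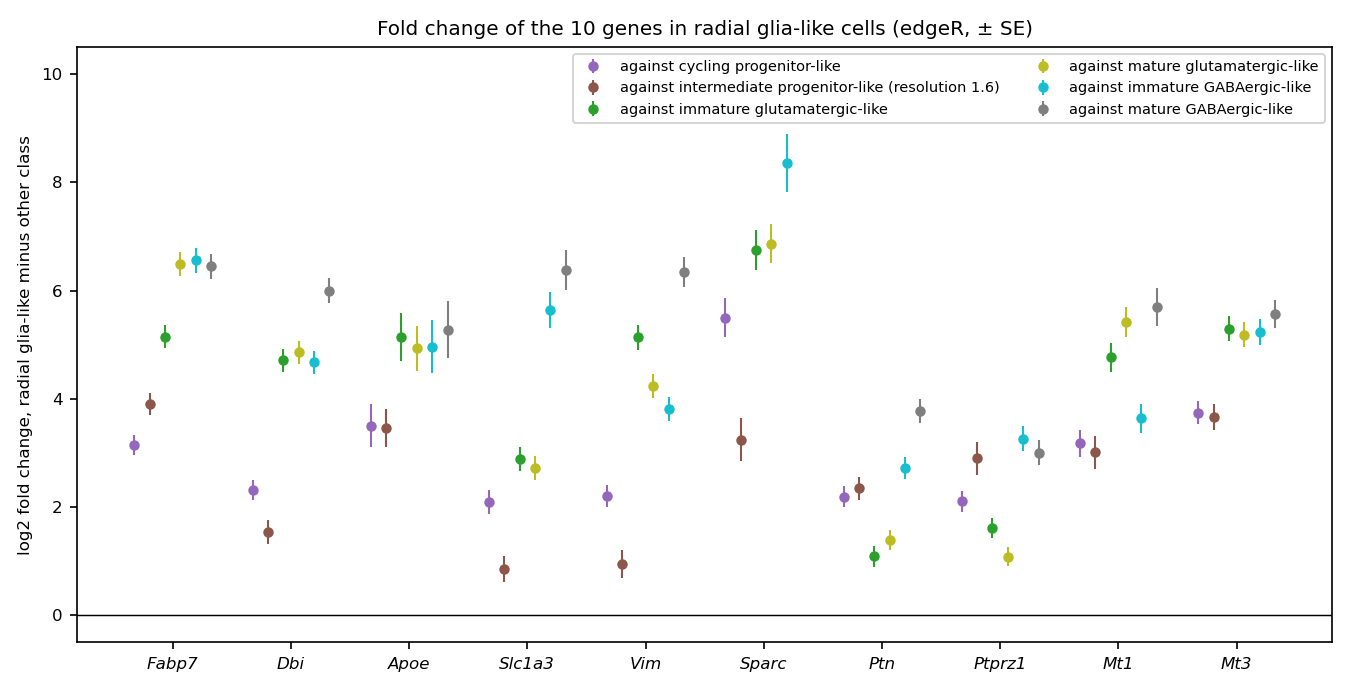
Log2 fold change (radial glia-like minus the class named by colour, ± SE derived from the F statistic of the edgeR fit) of each gene, with 2 aliquots per class. Every point lies above 0, Ptn and Ptprz1 fall to 1.09 and 1.08 against glutamatergic-like classes, and Sparc against mature GABAergic-like cells is left out because that class held no Sparc UMI.

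Fabp7 exceeded mature glutamatergic-like cells by a log2 fold change of 6.48 ± 0.22 (SE; adjusted p = 1.86e-18) and cycling progenitor-like cells by 3.15 ± 0.19 (adjusted p = 1.87e-12). Dbi differed by 4.86 ± 0.21 from mature glutamatergic-like and by 2.31 ± 0.19 from cycling progenitor-like cells. Slc1a3 showed a wide range between classes, 6.38 ± 0.37 against mature GABAergic-like but 2.72 ± 0.22 against mature glutamatergic-like cells. Mature GABAergic-like cells held only 5 Slc1a3 UMIs, so the size of that difference is less certain than its SE, and no counting interval was computed. Vim ran from 2.21 ± 0.20 against cycling progenitor-like to 6.35 ± 0.28 against mature GABAergic-like cells. Among these classes the smallest differences were those of the growth factor and its receptor. Ptn was 1.09 ± 0.19 above immature glutamatergic-like cells (adjusted p = 2.93e-05), and Ptprz1 was 1.08 ± 0.18 above mature glutamatergic-like cells (adjusted p = 8.97e-06). When the clusters were drawn more coarsely, at a resolution of 0.4 that gave 162 radial glia-like cells, the Ptn difference to immature glutamatergic-like cells was 0.45 and no longer passed (adjusted p = 0.0676).

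Sparc exceeded cycling progenitor-like cells by 5.50 ± 0.36 on the log2 scale and mature glutamatergic-like cells by 6.86 ± 0.36. Those classes held only 11 and 10 Sparc UMIs, so these sizes are less certain than the SE. Against mature GABAergic-like cells, where 0 of 746000 UMIs were Sparc, the level of the radial glia-like class was at least 108-fold higher than the 3 UMIs over the whole class that a count of 0 allows. Against immature GABAergic-like cells, with 1 Sparc UMI, the ratio was 422-fold with a 95% counting interval of 75.4 to 16693. Mt1 was 5.42 ± 0.27 and Mt3 5.18 ± 0.23 above mature glutamatergic-like cells, and 3.18 ± 0.24 and 3.75 ± 0.21 above cycling progenitor-like cells.

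Apoe was 4.93 ± 0.42 above mature glutamatergic-like cells (adjusted p = 5.78e-06) and 3.51 ± 0.40 above cycling progenitor-like cells (adjusted p = 0.000305). With only these classes in the fit, the difference to cycling progenitor-like cells was 3.45 and missed the threshold (adjusted p = 0.0610). In the 951 cell aliquot 3 cells of the radial glia-like class held 93, 228 and 275 UMIs of 10 microglial markers such as C1qa and Tyrobp, while the next highest of all cells held 3. These cells had 34, 90 and 124 Apoe UMIs and 5, 25 and 25 Mt1 UMIs, but no Ptn, Ptprz1 or Mt3 UMI. They held 22.0% of the Apoe and 7.04% of the Mt1 UMIs of the class. Their levels on Illumina, 7652 CPM for Apoe and 1697 CPM for Mt1, were above those of the radial glia-like class. Without them Apoe in the 951 cell aliquot was at 715 CPM instead of 915, and its difference to mature glutamatergic-like cells was 4.68. None of the 10 microglial markers was detected in the radial glia-like cells of the 190 cell aliquot.

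Markers of other cell types were looked for in the same class. The 6 endothelial markers summed to 1 and 18 UMIs in the aliquots, the 6 markers of mural cells and fibroblasts to 5 and 98, the 4 choroid plexus markers to 2 and 2, and the 4 ependymal markers to 6 and 40. The 5 oligodendrocyte precursor markers summed to 19 and 81 UMIs, beside 42 and 161 in cycling progenitor-like cells. In 3 cells they reached 10 or more, and the highest, with 32, was an intermediate progenitor-like cell of the finer clustering described further on that held 45 Fabp7 UMIs. The endothelial markers Cldn5, Flt1 and Cdh5 were at 0 in both aliquots, while Pecam1, Kdr and Esam were detected in the 951 cell aliquot. There the endothelial sum was 16.0 CPM, beside 2.45 to 14.1 CPM in the other classes of the fit. Mural and fibroblast markers stood at 20.3 and 87.3 CPM in the aliquots, beside 9.66 CPM or less in those classes. Globin and other erythroid markers stood between 553 and 713 CPM in the class and between 557 and 745 CPM in the 5 others of the fit. In 1 cell with 32 mural and fibroblast UMIs there were 33 Sparc UMIs and no Slc1a3 UMI. The deepest cells also weighed on the sums. A cell with 60497 UMIs in the 951 cell aliquot carried 1663 Dbi UMIs, 18.1% of the Dbi UMIs of the class, where the next held 620, and it was also the highest for Sparc (95 UMIs), Mt1 (83) and Mt3 (316). Nanopore counted 975 Dbi UMIs in that cell. It also had the most endothelial (14) and ependymal (19) marker UMIs of the class. Of the 7 radial glia-like cells with more than 30000 UMIs, 2 were called doublets. All 10 genes were still called higher in the 5 comparisons without the cells over 30000 UMIs, and likewise without the 6 cells that held 10 or more UMIs of a microglial, vascular, choroid plexus or ependymal list. The 10 calls also held without the 3 radial glia-like and 6 cycling progenitor-like cells with 10 or more oligodendrocyte precursor UMIs. Without the cells over 30000 UMIs and without those of the microglial and other lists, Dbi was 4.67 and 4.72 and Sparc 6.39 and 6.61 above mature glutamatergic-like cells on the log2 scale.

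The genes were then counted cell by cell, without a test of whether they occur together more than their separate shares give. To compare cells at equal depth, 2000 UMIs were drawn from each, which left out no cell. A radial glia-like cell then showed a median of 7 of the 10 genes (range 1 to 10), and 35 of 105 cells showed at least 8. No cell of any other class showed 8. The medians were 2 in cycling progenitor-like and glutamatergic-like cells and 1 in GABAergic-like cells.

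Dbi was counted in 99.0% of thinned radial glia-like cells, Vim in 90.5%, Fabp7 in 82.9%, Ptn in 69.5% and Mt3 in 66.7%. Slc1a3 was counted in 55.2%, Ptprz1 and Mt1 in 47.6% each, Apoe in 41.9% and Sparc in 37.1%. Mature GABAergic-like cells, a type in which most of these genes are not known to be active, gave 21.6% for Dbi, 12.8% for Fabp7 and Ptn, 8.78% for Ptprz1 and Mt3, 4.05% for Vim and 2.03% or less for Apoe, Slc1a3 and Mt1. For Sparc it was 0 of 148 cells, which allows a share of up to 2.03% (3 cells of 148). Before thinning, at median depths of 9653 and 4933 UMIs, the shares were 94.3% and 30.4% for Fabp7 and 68.6% and 0% for Sparc. In thinned radial glia-like cells of the 190 cell aliquot the share with Sparc was 15.0% (3 of 20 cells, 95% exact interval 3.21% to 37.9%). In those of the 951 cell aliquot, also thinned, it was 42.4% (36 of 85 cells, 31.7% to 53.6%). These intervals overlap and cover counting error only.

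The radial glia-like class was itself mixed. A finer clustering, at a resolution of 1.6 chosen after the data had been seen, was named without the 3 microglial cells, which their markers told apart. It divided the other cells of the class into 69 radial glia-like cells (13 and 56 by aliquot), 32 intermediate progenitor-like cells (6 and 26) and 1 cycling progenitor-like cell. Intermediate progenitors are the dividing daughters of radial glia that make glutamatergic neurons, and the cluster was led by their genes Eomes and Neurog2. The 10 genes took no part in this split either.

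In the 69 radial glia-like cells the median number of UMIs per cell was 77 for Fabp7, against 3.5 in the intermediate progenitor-like cells. Mt3 had a median of 33 against 1, Ptn of 21 against 2, and Ptprz1 of 6 against 0. Dbi, Vim and Slc1a3 were kept more, with medians of 76 against 20.5, of 29 against 8.5 and of 8 against 2.5. Apoe had medians of 4 against 0, Sparc of 3 against 0 and Mt1 of 6 against 0.5. After thinning, radial glia-like cells showed a median of 8 of the genes and intermediate progenitor-like cells 4.

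**Figure D3:**
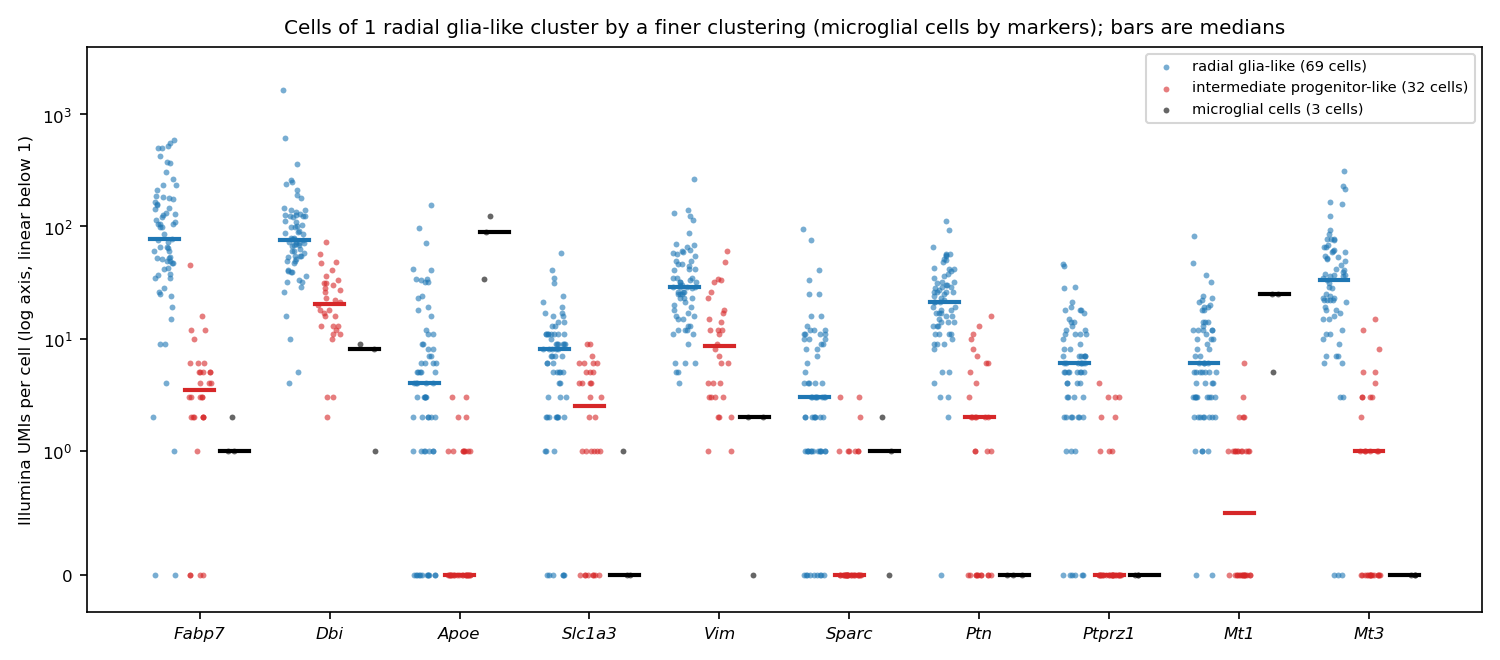
Illumina UMIs per cell (log axis, linear below 1) of each gene in the cells that 1 cluster held at the coarser setting, colored by the finer clustering, with bars at the medians. Fabp7 and Mt3 lie far apart between the groups, with medians of 77 against 3.5 and 33 against 1, and the 3 microglial cells, told by their markers, lie at 34, 90 and 124 UMIs for Apoe.

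In the test on summed counts all 10 genes were called higher in radial glia-like than in intermediate progenitor-like cells, where 4.69% of 7504 genes were. The median log2 fold change was 2.96, beside 0.09 over all genes. Fabp7 was 3.91 ± 0.20 higher (adjusted p = 2.02e-19, edgeR), Mt3 3.67 ± 0.24, Apoe 3.46 ± 0.35, Sparc 3.25 ± 0.40, Mt1 3.01 ± 0.31, Ptprz1 2.90 ± 0.31 and Ptn 2.34 ± 0.21. Without the cells with oligodendrocyte precursor markers Fabp7 was 4.20 higher and all 10 calls held. The smallest differences were those of Dbi, 1.54 ± 0.22 (adjusted p = 0.000111), Vim, 0.95 ± 0.25 (adjusted p = 0.0220), and Slc1a3, 0.86 ± 0.24 (adjusted p = 0.0153). The calls of Vim and Slc1a3 depended on single aliquots. Slc1a3 lost its call without the 951 cell aliquot of radial glia-like cells (adjusted p = 0.229), without either aliquot of intermediate progenitor-like cells (adjusted p = 0.0848 and 0.188) and in DESeq2 (adjusted p = 0.172), and Vim lost it without the 951 cell aliquot of radial glia-like cells (adjusted p = 0.0632), without the 190 cell aliquot of intermediate progenitor-like cells (adjusted p = 0.129) and with DESeq2 size factors (adjusted p = 0.0994).

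Nanopore UMIs were counted where a molecule could be given to 1 isoform. The shares are those of captured and assigned molecules, and short isoforms, long ones and priming inside A-rich introns may be captured unequally, which was not tested. For 7 genes 1 isoform held most of them, with 99.8% for Fabp7-201, 98.6% for Mt1-201, 98.1% for Mt3-201, 98.0% for Vim-201, 95.9% for Dbi-201, 92.2% for Sparc-201 and 88.2% for Apoe-206, next to 10.1% for Apoe-205, which starts further in and has the same 933 coding bases. Ptn was divided between Ptn-201 with 65.0% and Ptn-202 with 35.0% of 4523 UMIs. Ptprz1 had only 85 UMIs, of which 48.2% were Ptprz1-201 with 30 exons, 36.5% the shorter coding form Ptprz1-206 with 12 exons and 14.1% Ptprz1-204.

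Slc1a3 was the exception. Of its 630 UMIs, 49.7% were Slc1a3-205 and 33.2% Slc1a3-206, the short transcripts shown above that run into introns, and 16.7% were the coding Slc1a3-201. In radial glia-like cells the coding isoform had its highest share, 27.4% (79 of 288 UMIs, 95% exact interval 22.4% to 33.0%). The share was 21.6% in the 190 cell and 28.3% in the 951 cell aliquot. It was 16.7% (11 of 66 UMIs) in cycling progenitor-like, 5.92% (10 of 169) in mature glutamatergic-like and 5% (5 of 100) in immature glutamatergic-like cells. In the 190 cell aliquot the glutamatergic-like shares rest on 2 of 21 and 2 of 12 UMIs.

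The shares of the forms that run into introns are given as a description, since the neuronal classes were not tested against each other. Slc1a3-205, which stops after exon 3, held 65.1% in mature and 42.0% in immature glutamatergic-like cells, while Slc1a3-206, which stops after exon 2, held 28.4% and 52.0%. Radial glia-like cells had 44.1% and 28.1% of these forms.

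**Figure D4:**
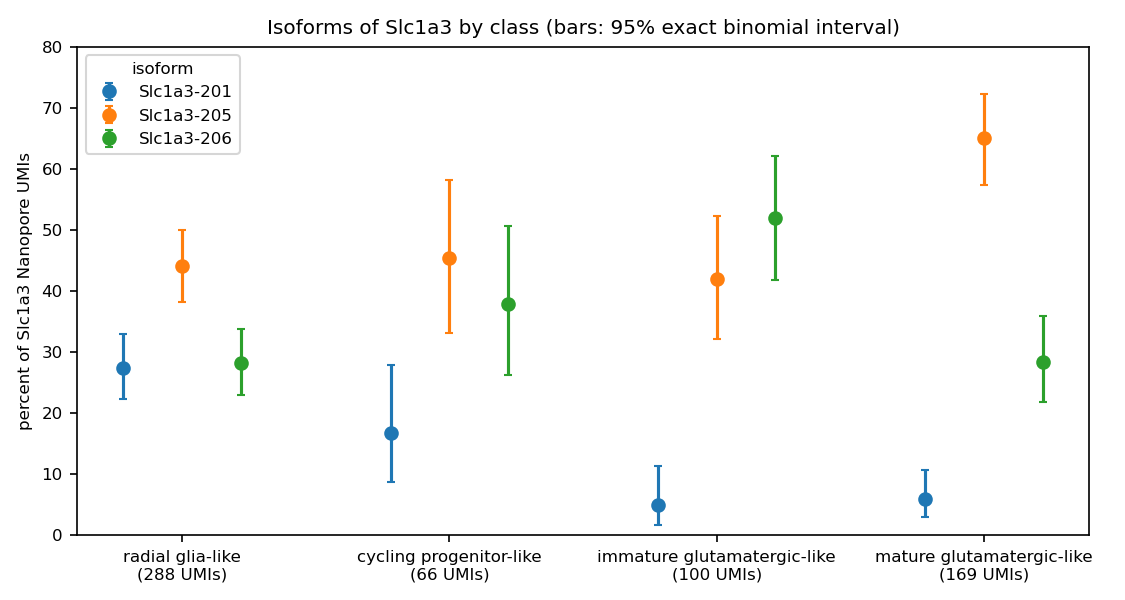
Share of Slc1a3 Nanopore UMIs, in percent, held by the 3 main isoforms in 4 classes, with 95% exact binomial intervals that cover counting error only. The coding Slc1a3-201 falls from 27.4% in radial glia-like cells to 5.92% in mature glutamatergic-like cells, and Slc1a3-205 is at 65.1% in the latter.

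Isoform usage was tested in the same classes with edgeR's diffSpliceDGE, and Slc1a3, Vim, Dbi, Ptn and Apoe had the isoforms for it. Slc1a3 was called against mature glutamatergic-like cells (adjusted p = 0.00253) and against immature glutamatergic-like cells (adjusted p = 0.00289), where 18.8% and 13.7% of 605 genes were called. With Slc1a3 alone called among these genes, the share called is close to that of genes in general. Slc1a3-201 passed the filter on low counts only through radial glia-like sums, the class where its share is highest. The calls are therefore no separate support for that share. Both calls rest on the 951 cell aliquot, since without it in radial glia-like or in the glutamatergic-like class the adjusted p ranged from 0.338 to 0.551. The call against immature glutamatergic-like cells was also lost at clustering resolutions of 0.4 (adjusted p = 0.0613) and 1.6 (adjusted p = 0.121). No gene of the set was called against cycling progenitor-like, mature GABAergic-like or immature GABAergic-like cells, nor had any an unadjusted p under 0.05 there, while 3.47%, 14.5% and 9.42% of genes were called. GABAergic-like cells held only 2 and 3 Slc1a3 UMIs on Nanopore, so a difference to them could not be seen at this depth. Between radial glia-like and intermediate progenitor-like cells, where 0.883% of 453 genes were called, Slc1a3-201 had 30.3% (73 of 241) and 12.8% (6 of 47 UMIs), which did not pass (unadjusted p = 0.00385, adjusted p = 0.140 in edgeR).

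No difference in Ptn isoform usage was called between radial glia-like cells and any other class tested. Ptn-202 held 37.6% in radial glia-like, 36.0% in cycling progenitor-like, 33.4% in immature and 33.3% in mature glutamatergic-like, 36.1% in immature and 34.4% in mature GABAergic-like cells. The difference between radial glia-like and mature glutamatergic-like cells was not called (adjusted p = 0.754, edgeR), and within the radial glia-like class the aliquots were further apart, at 28.4% and 39.7%. The filter on low counts left 15 of the 39 isoforms. Without that filter Dbi was also called against mature glutamatergic-like cells (adjusted p = 7.18e-08), where Dbi-207 had 11 of 270 UMIs (4.07%) against 4 of 7001 (0.0571%) in radial glia-like cells. In the 190 and the 951 cell aliquot of the mature glutamatergic-like class Dbi-207 had 4 of 44 and 7 of 226 UMIs. Mt1 was called in the same way against immature glutamatergic-like cells (adjusted p = 0.00237), on 4 of 25 UMIs of Mt1-203 against 1 of 468. The share of all genes called without the filter was not recorded. These extra calls, on few UMIs, are therefore not read as a result about Dbi or Mt1.

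The platforms read the same droplets but did not count the genes alike. Over all genes named in both matrices Nanopore had 57.5 and 61.0 UMIs assigned to an isoform per 100 Illumina UMIs in the 190 and the 951 cell aliquot. Fabp7 had 85.9 and 88.5, Vim 83.2 and 86.5, Ptn 73.5 and 77.6 and Dbi 74.4 and 72.2. Mt1 with 59.4 and 56.0, Apoe with 46.4 and 50.7, Sparc with 39.4 and 50.5 and Slc1a3 with 36.9 and 48.0 were the genes without a call in the test below. Mt3 had 31.0 and 30.9. Ptprz1 had 4.17 and 4.82, 13 and 72 Nanopore against 312 and 1495 Illumina UMIs. Its main isoform, Ptprz1-201, is 8068 bases long, the longest of those named, whereas Mt3-201 has only 536 bases. Mt1-201 has 549 and Dbi-201 569 bases. Whether length plays a part in these yields was not tested.

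**Figure D5:**
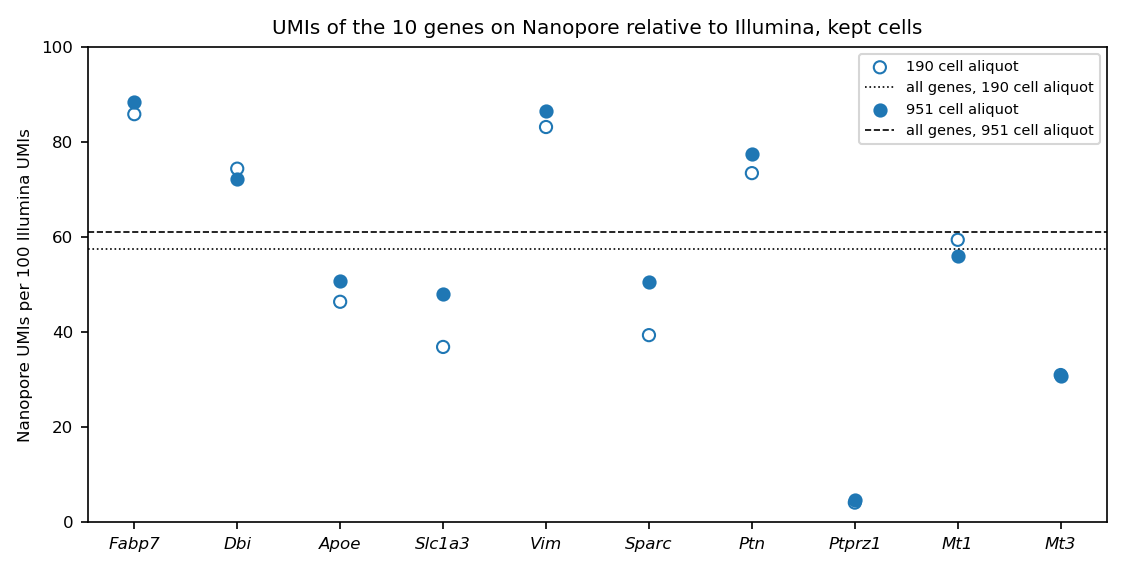
Nanopore UMIs assigned to an isoform per 100 Illumina UMIs for each gene in the kept cells, with open circles for the 190 cell and filled circles for the 951 cell aliquot. Lines mark all genes named in both matrices (57.5 and 61.0). Fabp7 and Vim lie above 80 in both aliquots, Mt3 lies near 31 and Ptprz1 below 5.

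In the edgeR fit of the 4 libraries 6 of the 10 genes were called, where 50.5% of 9855 genes were, so the number of calls is close to that of genes in general. Fabp7 (log2 fold change 0.74, adjusted p = 0.00212), Vim (0.70, adjusted p = 0.00445), Ptn (0.53, adjusted p = 0.00429) and Dbi (0.49, adjusted p = 0.00979) were higher in Nanopore relative to all genes. Ptprz1 (-3.48 ± 0.14, adjusted p = 6.6e-05) and Mt3 (-0.75 ± 0.10, adjusted p = 0.00238) were lower. Slc1a3 was at -0.26 (adjusted p = 0.214) and was called lower with the aliquot as a block (-0.19, adjusted p = 0.0279). With that block 6972 of the 9855 genes were called, so a call there is common among genes in general. Without the Nanopore library of 951 cells Slc1a3 was at -0.54.

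Differences between classes nonetheless had the same direction on both platforms. This is no independent test, since a Nanopore UMI was kept only where Illumina had found it in that cell and gene or region. Each of the 10 genes had a higher Nanopore level in radial glia-like cells than in the 5 other classes of the fit. Ptprz1 did not pass the filter on low counts there. Calls on Nanopore are not counted here, since the share of all genes called there was not recorded. The difference between radial glia-like and mature glutamatergic-like cells was larger in Nanopore for Fabp7 by 1.93 ± 0.39 on the log2 scale, which did not pass over all genes (adjusted p = 0.0737, edgeR) and did with the aliquot as a block (adjusted p = 0.0154). None of the 10 genes was called in this test of the interaction, with 4 of the 10 and 185 of 7434 genes at an unadjusted p under 0.05 and 0.0538% called. In mature glutamatergic-like cells Fabp7 was at 79.3 and 68.0 CPM on Illumina and at 3.34 CPM (1 UMI) and 35.8 CPM (57 UMIs) on Nanopore.

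Genes related to the 10 were counted from lists by function. The radial glia-like class here is the mixed one, which still held the microglial, the mural or fibroblast marker and the intermediate progenitor-like cells. The list counts were not repeated without these cells, and their part in the list genes was not tested. It was also not recorded which list genes passed the filter on low counts only through radial glia-like sums. Calls of such genes are set by the filter. Gfap and Tnc, for example, had 27 and 112 UMIs in radial glia-like cells and no UMI in mature GABAergic-like cells. The list counts are therefore a description. Beside the shares called higher given above, 16.1% of all genes were called lower in radial glia-like than in mature glutamatergic-like cells, 13.5% against immature glutamatergic-like, 13.9% against mature GABAergic-like, 11.5% against immature GABAergic-like and 5.21% against cycling progenitor-like cells. Of 10 tested astroglial genes 9 were called higher in radial glia-like than in mature glutamatergic-like cells, all 10 against each of the other neuronal classes and 7 against cycling progenitor-like cells, and none was called lower. Their median log2 fold change against mature glutamatergic-like cells was 4.18 with Gfap, which had no UMI there, at its lower bound. The membrane protein gene Mlc1 was 6.00, the glycolytic enzyme gene Aldoc 5.89 and the folate enzyme gene Aldh1l1 5.17 higher on the log2 scale than in mature glutamatergic-like cells. The astrocyte filament gene Gfap had 27 UMIs in radial glia-like and 0 in mature glutamatergic-like cells, a level at least 21.4-fold higher.

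Slc1a2, the other main glutamate transporter of astrocytes, was only 1.15 ± 0.40 higher than in mature glutamatergic-like cells (adjusted p = 0.0239, edgeR), and its difference of 1.23 to cycling progenitor-like cells did not pass (adjusted p = 0.0652). Slc1a3 differed by 2.72 and 2.10 in the same comparisons. In the list for glutamate uptake and turnover 3 of 7 genes were higher and 1 lower than in mature glutamatergic-like cells. The glutamine synthetase gene Glul (2.14) and the glutamate dehydrogenase gene Glud1 (1.19) were the other higher ones, and the neuronal transporter Slc1a1 was the lower one (-2.99). From the other neuronal classes 4 of the 7 differed as higher, and from cycling progenitor-like cells 1. In these comparisons 1 gene was lower against immature glutamatergic-like cells and none against the others.

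Of the partners of pleiotrophin and its receptor, 3 of 8 tested genes were higher than in mature glutamatergic-like cells and none lower, with a list median of 0.12. The other 5 ran from -0.60 for Lrp1 to 0.28 for Sdc1. The higher ones were the matrix proteins Tnc (5.48 ± 0.57) and Bcan (5.42 ± 0.52) and the pleiotrophin relative Mdk (3.13 ± 0.20). In the other comparisons 3 or 4 genes of the list were higher and at most 1 lower. Mdk was 0.15 ± 0.18 above cycling progenitor-like cells and did not pass there (adjusted p = 0.687, edgeR), whereas Ptn was 2.20 ± 0.20 higher.

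Of 10 tested relatives of Fabp7, Dbi and Apoe in lipid binding and transport, 2 were higher and 3 lower than in mature glutamatergic-like cells, and the list median was -0.05. With 17.8% and 16.1% of all genes called in these directions, the number higher is near that of genes in general. The cholesterol exporter Abca1 (6.02 ± 1.07) and the lipoprotein clusterin (Clu, 3.69 ± 0.32) were higher. The fatty acid binding protein genes Fabp3 (-3.20 ± 0.40) and Fabp5 (-1.06 ± 0.14, adjusted p = 3.64e-07 in edgeR) and the lipoprotein receptor gene Vldlr (-1.78 ± 0.47) were lower. From 1 to 3 of the 10 were higher and from 0 to 2 lower in the other comparisons.

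Of the 4 other intermediate filament genes tested, the neuronal Ina (-4.40), Nefl (-4.32) and Nefm (-3.46) were lower than in mature glutamatergic-like cells and Gfap was higher, while Vim was 4.23 ± 0.22 higher. In the other comparisons 0 or 1 of these 4 was higher and from 1 to 3 were lower. In the metallothionein and zinc list 3 of 4 tested genes were higher, Mt2 by 5.38 ± 0.32, the zinc transporter Slc30a10 by 2.06 ± 0.67 and the metal response factor Mtf1 by 1.49 ± 0.48. Mt2 alone was higher against immature glutamatergic-like (4.48) and cycling progenitor-like cells (2.75). Mt1 and Mt2 are close paralogues, and how reads that fit both were counted is not given in the sources used here. Of 9 matrix genes and relatives of Sparc, 5 were higher than in mature glutamatergic-like cells, led after Tnc by the collagen chaperone Serpinh1 (4.44 ± 0.32), Smoc1 (4.24 ± 1.01) and Fstl1 (3.97 ± 0.43), and 2 were lower, Spock1 (-2.60) and Spock2 (-2.16). From 5 to 6 of the 9 were higher in the other comparisons, and 1 was lower against mature GABAergic-like cells. The nearest relative, Sparcl1, was at -0.05 ± 0.40 (adjusted p = 0.951, edgeR).

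The levels most like those of each gene were sought among 3001 genes over the 12 sums of aliquot and class, as a description by Pearson's r, since the sums share libraries and classes. Fabp7 was closest to Mfge8 (r = 0.975), Prdx6 and Psat1. Dbi was closest to Aldoc (0.987), Rpl10a and Serf2, and Vim to Serf2 (0.986), Dbi and Rpl10a. Apoe, Mt3 and Sparc were found near one another, with 0.981 between Apoe and Mt3 and 0.975 between Sparc and Apoe, and Mt3 was closest to the Notch target Hes5 (0.988). Hes5 and Mfge8 are among the markers that named the radial glia-like class, so their likeness is no separate result. Mt1 was closest to Mt2 (0.987), Slc1a3 to Hmgn3 (0.970), Ptprz1 to Mmd2 (0.969) and Ptn to Rlbp1 (0.947), the lowest of these leading values.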

How the data were processed

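The cDNA of both aliquots was sequenced on both platforms. For Illumina the authors made UMI counts per gene and cell with Cell Ranger 2.0 on mm10. For Nanopore the authors mapped reads with minimap2, gave each read a cell and a molecule with the help of the Illumina barcodes and UMIs, and deposited UMI counts per Gencode isoform. Both were raw counts, and UMIs without an isoform were not analysed here. Cells under 1400 genes were left out.

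Cells were clustered with Seurat 5.3.0 (canonical correlation over 11 dimensions, 2000 variable genes, resolution 0.8) without the 10 genes and the listed relatives. A class needed 3 raised markers and a lead of 0.2 in mean log2 fold over the next. Doublets, called with Scrublet in scanpy 1.11.5, were 3 of 186 and 4 of 935 cells, and were kept. UMIs were summed per aliquot and class (at least 5 cells in each aliquot), giving 12 sums in 1 fit of edgeR 4.0.16 in R 4.3.3 (TMM, filterByExpr, robust quasi-likelihood F test, Benjamini-Hochberg adjusted p under 0.05). Isoform usage was tested with diffSpliceDGE. Platforms were compared over 4 libraries with genes matched by symbol, and a platform by class term was fitted over the sums of both platforms. DESeq2 1.42.0 was an alternative. The scripts were tested on simulated data. Intervals are 95% Clopper-Pearson intervals. The SE of a class difference is the absolute log2 fold change over the square root of its F statistic. It can be too small where a class held few UMIs. The lowest fold against a count of 0 used 3 UMIs.

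Named were all 10 genes, isoforms with at least 5% of a gene's UMIs over all cells or in a class with 20 UMIs of it, the 3 most similar genes each by log2(CPM + 10) among genes over 50 CPM, and from each list the called genes with the largest change besides Mt2, Mdk, Slc1a2 and Fabp5. Dbi-207, Sdc1, Lrp1, Spock1, Spock2, Glud1 and Sparcl1 were named after their values had been seen. A gene that the rule would name is not reported here. The genes and lists were chosen with earlier results of these data known. Positions and sequences are from GENCODE release M21 transcripts on GRCm38, whereas the authors used an earlier release.

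The labels name the aliquot, which pairs the samples. Deviations of the aliquots correlated at 0.673 between platforms (8849 genes) and at a median of 0.340 (0.241 to 0.481) over the 15 pairs of classes. The aliquot as a block was an alternative, as were other resolutions, filters, size factors, single aliquots left out, doublets, shared barcodes and doubted cells left out.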

Additional observations from a re-analysis of the deposited data

Results flagged for a closer look

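The class difference of Fabp7 was larger on Nanopore than on Illumina once the aliquot was fitted as a block, with an adjusted p of 0.0154 for the platform by class interaction in edgeR, against 0.0737 without the block. The log2 fold change between radial glia-like and mature glutamatergic-like cells was 8.40 on Nanopore and 6.48 on Illumina. On Nanopore the mature glutamatergic-like cells held 1 Fabp7 UMI in the 190 cell and 57 in the 951 cell aliquot, so the value of the 190 cell aliquot is near the floor.

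The 20 cell barcodes under the gene minimum, which no comparison uses, held 81 UMIs of the 10 genes on Illumina. They were 17 of 28019 UMIs in the 4 barcodes of the 190 cell aliquot and 64 of 167766 UMIs in the 16 of the 951 cell aliquot, or 607 and 381 CPM. In the kept cells the 10 genes stood at 4156 and 4444 CPM.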

How the results depend on the processing

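Of 180 counts of called genes recomputed under alternatives, 169 stayed within 1.5 times the reported count, and of 1040 fold changes of the 10 genes between classes 1031 kept their direction and call and 9 kept the direction only. In isoform usage 282 of 289 tests and between platforms 88 of 90 fold changes kept their side of the threshold, and no fold change reversed. The number of genes called for isoform usage, 1 against mature glutamatergic-like cells, was 2 without the filter and ranged from 0 to 1 when 1 aliquot of a class was left out. Against immature glutamatergic-like cells it was 1, then 2 without the filter, 0 at resolutions of 0.4 and 1.6 and 0 to 1 with an aliquot left out. For the interaction it was 0, then 1 with the replicate block, 1 without the filter and 0 to 1 with an aliquot left out (1 without the mature glutamatergic-like cells of the 951 cell aliquot). The cause of these changes was not tested, and the share of all genes called without the filter was not recorded. With the replicate block Slc1a3 was also called between platforms (adjusted p = 0.0279, edgeR), where 6972 of 9855 genes were called. The block changed no other call of the 10 genes. An aliquot left out leaves 1 sum, which is assumed to vary like the other classes. DESeq2 size factors moved the median of all genes by less than 0.1. Of 140 shares of cells with a UMI, 102 moved by more than the SD between aliquots with the depth drawn. The comparison with intermediate progenitor-like cells could not be made at resolutions of 0.4, 0.8 and 1.2, where no cluster took that name. Depth limits Ptprz1 isoforms (85 UMIs) and all isoform shares in GABAergic-like cells.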
